A study of Mus musculus with 6 samples.

Results

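Genes of the oligodendrocyte lineage and of myelin were compared in ventral hippocampus between 2 groups of mice, whose genotype labels are NEGR1_overexpression and NEGR1_control. The set held 37 of the 56941 gene identifiers deposited, chosen by symbol as known genes of the lineage: 6 of precursors and lineage identity, 6 of committed and newly formed cells and 25 of mature myelinating cells. All 37 had enough counts to be tested. The 6 mice gave 1 poly(A) RNA library each, 3 per group. The labels give tissue and genotype. Not given in the sources used here were strain, age, sex and the promoter, vector or allele behind the overexpression. NEGR1 is an adhesion molecule of neuronal membranes, and the study's stated question was its role in impaired working memory and in behaviour of an anxious or depressive kind.

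Oligodendrocytes arise from dividing precursor cells that carry the growth factor receptor Pdgfra and the proteoglycan Cspg4. The transcription factors Olig1, Olig2, Nkx2-2 and Sox10 mark the lineage, and Myrf switches on the myelin programme when a cell commits. Mature cells wrap axons in a lipid-rich sheath held together by Mbp, with Mag, Mog, Mobp, Cnp and Cldn11 among its other proteins. In the hippocampus myelin lies mostly in the fimbria, the alveus and the perforant path, while precursors are spread through all layers.

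The libraries held 30726110 to 38108394 counts each. Negr1 itself stood at 185, 199 and 195 CPM (normalised read count, scaled to library size) in overexpression replicates 1 to 3 and at 181, 168 and 180 CPM in control replicates 1 to 3, so the groups did not overlap, but the difference did not pass edgeR's quasi-likelihood test with Benjamini-Hochberg adjustment (adjusted p = 0.488). Of 19354 genes tested, 9 passed an adjusted p of 0.05, which is 0.0465%. Control replicate 1 stood apart from the other control libraries on the mature genes described here, and overexpression replicate 1 carried RNA of the choroid plexus, a tissue next to the hippocampus, with 8 marker genes summing to 736 CPM against 25.4 to 71.0 CPM in the other 5 libraries.

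The genes of mature and some committed oligodendrocytes were at lower levels in the overexpression libraries, whereas 5 of the 6 precursor genes had nearly equal means. Of the 37 members 0 passed the adjusted threshold, with adjusted p-values from 0.150 for Mbp to 0.992 for Pdgfra. At an unadjusted p under 0.05, 21 members were lower and 0 higher, against 4.6% of all tested genes lower and 4.64% higher. The fold change was below 1 for 36 members, where 49.6% of all tested genes were below 1. For 16 members all 3 overexpression libraries lay below all 3 control libraries, as did 8.07% of all tested genes. The median log2 fold change of the members was -0.29, and that of all tested genes was 0.0015; the members' median became -0.16 without control replicate 2. The members' counts made up 0.368 to 0.422% of the counts of an overexpression library and 0.444 to 0.533% of a control library, Mbp alone giving 37.5 to 40.6% of them. In whole tissue, fewer cells of the lineage and less RNA per cell cannot be told apart, and members that vary together across 6 libraries are not independent of each other.

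The call depended on the library left out and on the test. Without control replicate 1, edgeR's test put 11 members past the adjusted threshold (0.196% of all genes tested in that fit) and 28 lower at an unadjusted p under 0.05 (3.31%). The 11 were Bcas1, Gjb1, Mag, Mbp, Mobp, Mog, Myrf, Plekhb1, Sox10, Tmem88b and Trf. Without overexpression replicate 1, Gsn alone passed (0.318% of all genes), and without any of the other 4 libraries 0 members passed. With all 6 libraries DESeq2's Wald test called 10 members (0.553% of all genes), all of them also among those 11. edgeR without a filter on low counts called 17 (0.853% of all genes). The log2 fold change of Mbp was -0.44 in the main fit and in both of these. Its adjusted p was 0.150 in the main edgeR fit, 5.1e-05 with DESeq2 and 1.7e-13 with edgeR without a filter. For Mbp the p-value thus moved while the effect size did not. With all 6 libraries, limma-voom with sample weights called 0 members (smallest adjusted p 0.221, for Plekhb1) and 6 of all 19354 genes. edgeR with other normalisation factors, with a filter of 1 CPM in 3 libraries or with the replicate number as a block also called 0 members.

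**Figure D1:**
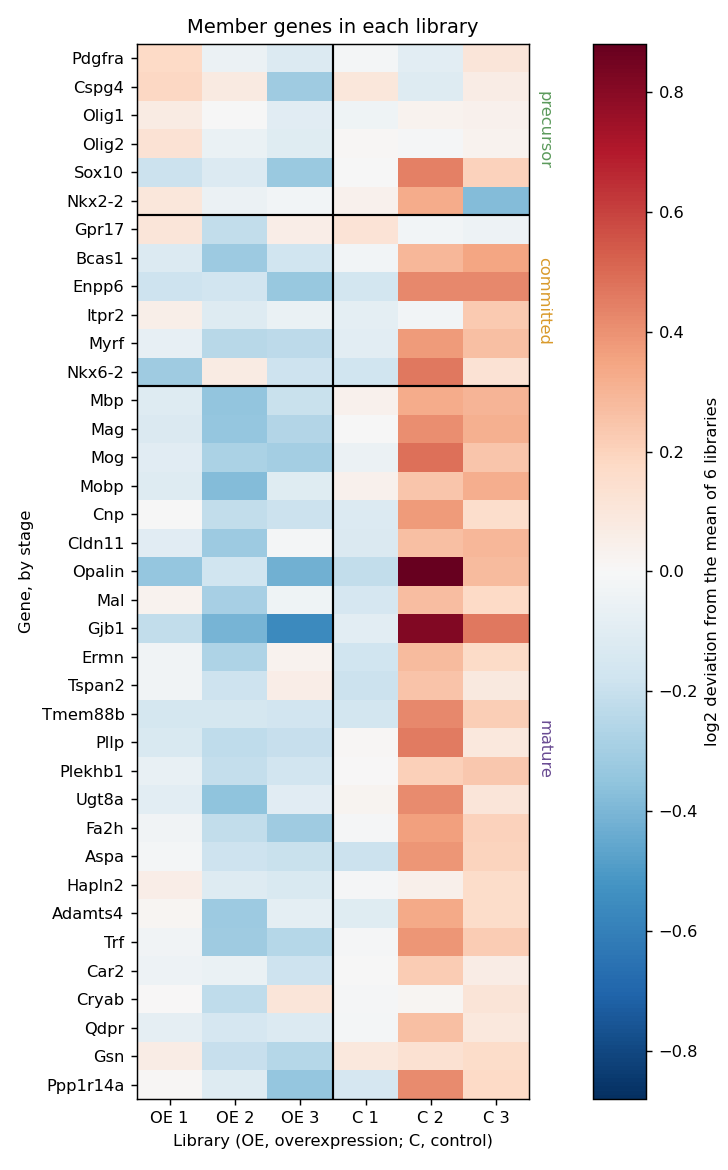
Log2 deviation of each member (rows, by stage) from its mean over the 6 libraries (columns; OE, overexpression; C, control). Control replicates 2 and 3 are above the mean for nearly all mature genes, control replicate 1 lies close to the overexpression libraries, and precursor rows other than Sox10 show no split by group.

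Among precursor and lineage genes, the factors Olig1 and Olig2 were at like levels in both groups, whereas Sox10 is given below. Olig2 (ENSMUSG00000039830) stood at 26.5, 23.2 and 22.5 CPM in overexpression replicates 1 to 3 and at 24.4, 24.0 and 24.7 CPM in control replicates 1 to 3. The control values sat inside the overexpression range. The fold change, overexpression over control, was 0.988 (95% interval 0.881 to 1.11, edgeR adjusted p = 0.968). Its partner Olig1 stood at 70.9, 67.0 and 62.8 against 65.5, 68.8 and 69.0 CPM, a fold of 0.987 (interval 0.902 to 1.08). The ranges again overlapped, and neither interval excludes a difference of the size of its own bounds.

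The receptor and proteoglycan of precursor cells also overlapped between groups. Pdgfra was at 69.0 ± 7.66 CPM (SD, n = 3) in overexpression and 68.8 ± 4.70 CPM in control libraries, a log2 fold change of 0.0051 with the fold between 0.892 and 1.13. Cspg4 was at 36.9, 34.4 and 26.1 against 34.8, 30.1 and 33.9 CPM, with overexpression replicate 3 the lowest of the 6 libraries. Nkx2-2, a homeodomain factor of the lineage at only 1.51 to 2.47 CPM, had a fold of 0.987 and a wide interval of 0.712 to 1.37. Over these 5 genes (all but Sox10) the log2 fold changes ran from -0.022 to 0.0051 and the smallest unadjusted p was 0.763. Fibroblasts also express Pdgfra and pericytes Cspg4. All 6 markers of fibroblasts and meninges had a fold above 1, where 49.6% of all tested genes were below 1. They summed to 99.1 to 127 CPM in overexpression and 71.0 to 114 CPM in control libraries. At an unadjusted p under 0.05, 3 of them were higher, against 4.64% of all tested genes. Of 6 pericyte and smooth muscle markers 5 were above 1, with 49.6% of all tested genes below 1. The 6 summed to 238 to 285 against 217 to 250 CPM. The part of these cells in the precursor values was not tested.

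Sox10, the factor kept from precursor to myelinating cell and a direct activator of myelin genes, was the 1 gene of its stage whose groups did not overlap. Sox10 (ENSMUSG00000033006) stood at 22.7, 23.8 and 20.7 CPM in overexpression replicates 1 to 3 and at 25.8, 35.3 and 29.8 CPM in control replicates 1 to 3. All 3 overexpression libraries lay below all 3 control libraries, and control replicate 1 was the lowest of its group. The fold was 0.738 (interval 0.630 to 0.865), with a log2 fold change of -0.44 ± 0.105 (SE), an unadjusted p of 0.00129 and an edgeR adjusted p of 0.240.

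Genes of committed and newly formed oligodendrocytes were of both kinds. Gpr17, a receptor of cells just before they myelinate, stood at 73.3, 58.8 and 71.0 CPM in overexpression and 74.1, 67.2 and 66.2 CPM in control libraries, so the groups overlapped (fold 0.979, interval 0.867 to 1.11). Itpr2, a calcium channel of the endoplasmic reticulum that marks newly formed cells, was at 38.3 ± 2.25 against 40.7 ± 4.84 CPM and overlapped too.

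Bcas1, a protein of early myelinating cells, stood at 92.9, 81.1 and 89.7 CPM in overexpression and at 99.5, 124 and 129 CPM in control libraries. The groups did not overlap, with control replicate 1 nearest to the overexpression libraries. Its fold was 0.748 (interval 0.646 to 0.866; unadjusted p = 0.00132, edgeR adjusted p = 0.240). Enpp6, a choline phosphodiesterase of newly formed cells, stood at 4.89, 4.94 and 4.41 against 4.95, 7.45 and 7.44 CPM. Control replicate 1 was just above the highest overexpression library, and the other control libraries were well above it (fold 0.717, interval 0.563 to 0.913, adjusted p = 0.415).

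Myrf, the regulator that turns on myelin genes, stood at 56.9, 50.4 and 50.9 CPM in overexpression and 56.2, 77.6 and 71.8 CPM in control libraries. Control replicate 1 fell within the overexpression range, so the groups overlapped (fold 0.769, interval 0.645 to 0.917, unadjusted p = 0.00841, adjusted p = 0.401). Nkx6-2, a homeodomain factor of myelinating cells, was at 3.10, 4.06 and 3.41 against 3.43, 5.35 and 4.23 CPM and overlapped as well. In this stage all 6 genes had a fold below 1 and 3 had an unadjusted p under 0.05. Of all tested genes, 49.6% were below 1 and 4.6% were lower at that p. The stage median was -0.34, which became -0.20 without control replicate 2, when Nkx6-2 went from -0.30 to -0.12.

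**Figure D2:**
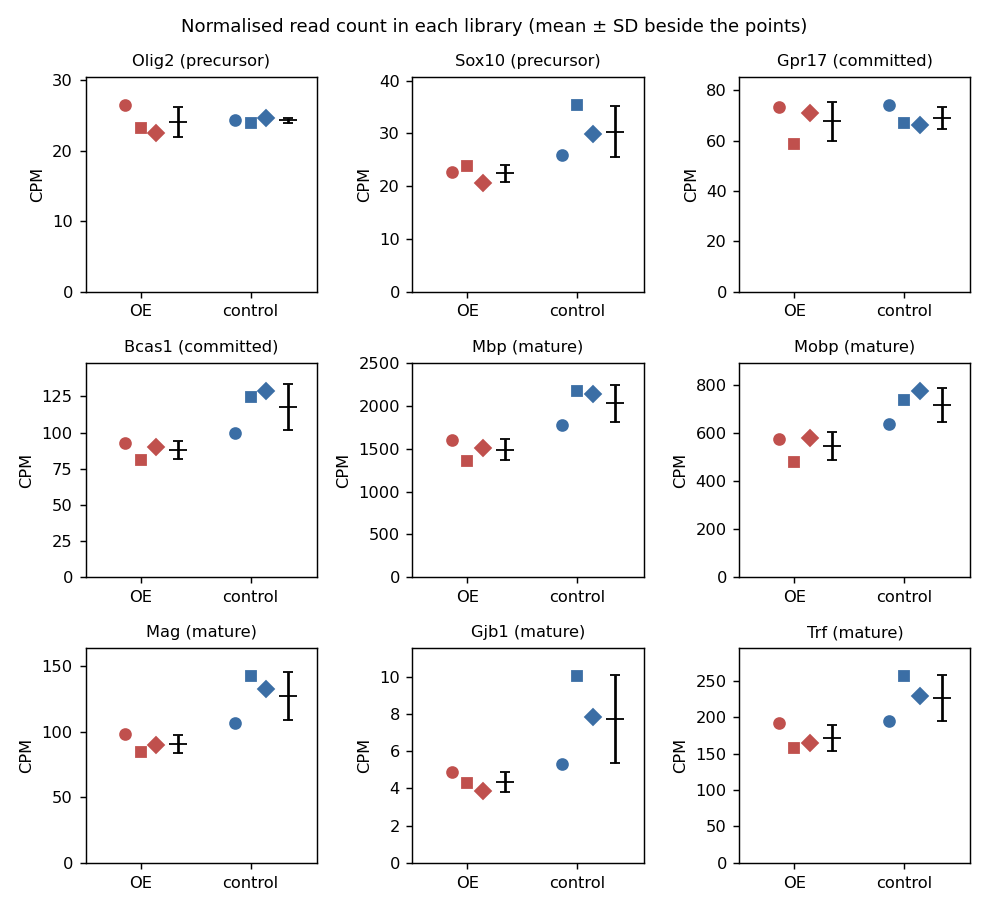
Normalised read count (CPM, linear axis from 0) of 9 members in each library, red for overexpression and blue for control, with circle, square and diamond for replicates 1, 2 and 3 and the mean ± SD (n = 3) in black beside the points. Olig2 and Gpr17 overlap between groups, and for Sox10, Bcas1, Mbp, Mobp, Mag, Gjb1 and Trf every control library lies above every overexpression library, control replicate 1 (blue circle) being the lowest control.

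Myelin membrane and junction genes were the largest group, and Mbp was the most abundant of them. Per kilobase of exon, a scale that allows genes to be set side by side, the mean level in control libraries was 240 CPM per kb for Mbp, 105 for Mobp and 68.2 for Trf, against 31.3 for Olig1, the highest of the precursor genes. Mbp (ENSMUSG00000041607), the protein that zips the layers of the sheath together, stood at 1602, 1363 and 1511 CPM in overexpression replicates 1 to 3 and at 1777, 2178 and 2135 CPM in control replicates 1 to 3. All control libraries were above all overexpression libraries, and the gap between control replicate 1 and overexpression replicate 1 was smaller than that between control replicates 1 and 2. The means were 1492 ± 121 and 2030 ± 220 CPM, a fold of 0.735 (interval 0.646 to 0.836, unadjusted p = 3.2e-04, edgeR adjusted p = 0.150).

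Mobp, a small basic protein of the compact sheath, stood at 577, 479 and 580 CPM in overexpression and 640, 737 and 776 CPM in control libraries. The groups did not overlap (fold 0.760, interval 0.661 to 0.873, adjusted p = 0.243). Mag (ENSMUSG00000036634), an adhesion molecule on the layer that faces the axon, stood at 98.0, 84.4 and 89.5 against 106, 142 and 133 CPM. The highest overexpression library was again just under control replicate 1 (fold 0.713, interval 0.605 to 0.840, adjusted p = 0.232). Plekhb1, a protein with a pleckstrin homology domain, stood at 213, 193 and 198 against 223, 257 and 263 CPM (fold 0.813, interval 0.737 to 0.897, adjusted p = 0.183). For each of these 3 genes, as for Mbp, every control library was above every overexpression library.

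Gjb1, a connexin of the gap junctions between myelin layers, had the largest difference of the 37 and was singled out after its values were seen. It stood at 4.89, 4.27 and 3.86 CPM in overexpression and 5.33, 10.03 and 7.84 CPM in control libraries. The groups did not overlap, and control replicates 2 and 3 held most of the gap (fold 0.559, interval 0.409 to 0.765, unadjusted p = 0.00180, adjusted p = 0.264). Opalin, a sialylated membrane protein of mature cells, stood at 8.41, 9.44 and 7.93 against 9.16, 19.6 and 12.9 CPM. Control replicate 1 lay inside the overexpression range, and the log2 fold change of -0.70 became -0.36 without control replicate 2. Mog, found on the outer face of the sheath, was at 26.1 ± 1.98 against 36.0 ± 6.65 CPM without overlap (adjusted p = 0.348), and Pllp, a proteolipid of myelin, at 6.12 ± 0.205 against 8.01 ± 1.37 CPM without overlap (adjusted p = 0.423).

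The other 6 genes of this group had ranges that overlapped, with control replicate 1 inside or below the overexpression range in each. Cnp, an enzyme of the cytoplasm-filled channels of myelin, was at 165 ± 13.4 against 201 ± 34.4 CPM, and Cldn11, which forms the tight junctions of the sheath, at 56.2 ± 5.93 against 68.9 ± 10.7 CPM. Tmem88b was at 34.2 ± 0.124 against 43.3 ± 8.56 CPM, a contrast in spread as well as in level, since control replicate 1 matched the overexpression libraries at 34.3 CPM. Mal, Ermn and Tspan2, membrane and cytoskeletal proteins of the sheath, had folds of 0.870, 0.878 and 0.927 and intervals that included 1. Without control replicate 2 the log2 fold change went from -0.29 to -0.16 for Cnp, from -0.34 to -0.20 for Tmem88b, from -0.20 to -0.11 for Mal, from -0.19 to -0.090 for Ermn and from -0.39 to -0.24 for Pllp. Mal and Ermn also went to -0.31 each without control replicate 1, and to -0.11 and -0.10 without overexpression replicate 2. Tspan2, at -0.11 in the main fit, ran from -0.22 to -0.0023 with a library left out. Of the 14 genes of this group all had a fold below 1, 10 had an unadjusted p under 0.05 and 7 did not overlap. Of all tested genes, 49.6% were below 1, 4.6% were lower at that p and 8.07% were lower without overlap. The median of the group was -0.37 on the log2 scale.

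Promoter sequence is shown for 4 of these genes, chosen because it holds letters of the kind bound by Sox10 and Myrf, whose own levels are given above and which are known to act on myelin genes. The promoters of Cnp, Gjb1 and Tmem88b, of the same group, held such letters too but are not shown. Those of Plekhb1, Pllp, Cldn11, Mal, Ermn and Tspan2 held no such letters and are not shown. The sequences are RefSeq's (assembly GRCm38.p6), 5′ to 3′ on the strand of the gene, up to 250 bases before the most upstream start in that table, ended where an annotated exon begins. Capitals mark letters found on either strand. For Sox proteins these were ACAAAG (reverse complement CTTTGT) together with the motif AACAAT (reverse complement ATTGTT). For Myrf they were CTGGCAC (reverse complement GTGCCAG) together with the motif CTGGTAC (reverse complement GTACCAG). The positions are chr9:120149492-120149706 (plus strand) for Mobp, chr7:30914923-30915172 (minus) for Mag, chr17:37023399-37023648 (minus) for Mog and chr19:41077114-41077363 (minus) for Opalin.
Mobp: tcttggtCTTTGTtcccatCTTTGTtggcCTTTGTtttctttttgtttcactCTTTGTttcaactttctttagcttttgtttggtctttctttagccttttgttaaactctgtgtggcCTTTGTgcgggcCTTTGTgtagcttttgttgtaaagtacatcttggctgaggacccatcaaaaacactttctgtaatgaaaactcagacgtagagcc
Mag: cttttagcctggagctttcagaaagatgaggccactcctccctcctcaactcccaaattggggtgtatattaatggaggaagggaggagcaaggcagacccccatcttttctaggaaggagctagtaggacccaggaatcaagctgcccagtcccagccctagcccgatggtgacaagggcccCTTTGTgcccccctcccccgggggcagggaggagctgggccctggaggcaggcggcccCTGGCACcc
Mog: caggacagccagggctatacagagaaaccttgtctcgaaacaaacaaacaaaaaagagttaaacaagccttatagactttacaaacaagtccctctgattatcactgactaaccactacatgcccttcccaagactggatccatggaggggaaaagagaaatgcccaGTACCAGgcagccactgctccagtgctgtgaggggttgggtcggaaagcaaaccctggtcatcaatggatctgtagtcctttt
Opalin: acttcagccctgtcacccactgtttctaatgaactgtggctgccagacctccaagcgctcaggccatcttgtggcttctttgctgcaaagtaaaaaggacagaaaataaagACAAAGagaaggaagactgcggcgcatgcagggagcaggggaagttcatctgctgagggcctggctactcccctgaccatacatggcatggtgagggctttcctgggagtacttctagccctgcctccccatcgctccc

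The Mobp window held 6 copies of CTTTGT, and this promoter was the only 1 of the 32851 in the table to reach that count. Mag held 1 CTTTGT and 1 CTGGCAC. Mog held 1 GTACCAG and Opalin 1 ACAAAG. Promoters were found for 26 of the 37 members; entries for Olig1, Sox10, Gpr17, Bcas1, Myrf, Mbp, Fa2h, Adamts4, Trf, Car2 and Cryab were missing. In the full 250 bases ACAAAG was in 5 of the 19 mature members with a promoter (26.3%) and in 16.5% of all promoters. AACAAT was in 4 of 19 (21.1%) against 9.42%, and either of the Myrf-type letters in 4 of 19 (21.1%) against 5.93%. Each member was counted once, by its most upstream start, whereas the share over all promoters counted every entry of the table. In the member promoters 0 matches overlapped each other. A match is a description of these letters and was not tied to the expression values.

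**Figure D3:**
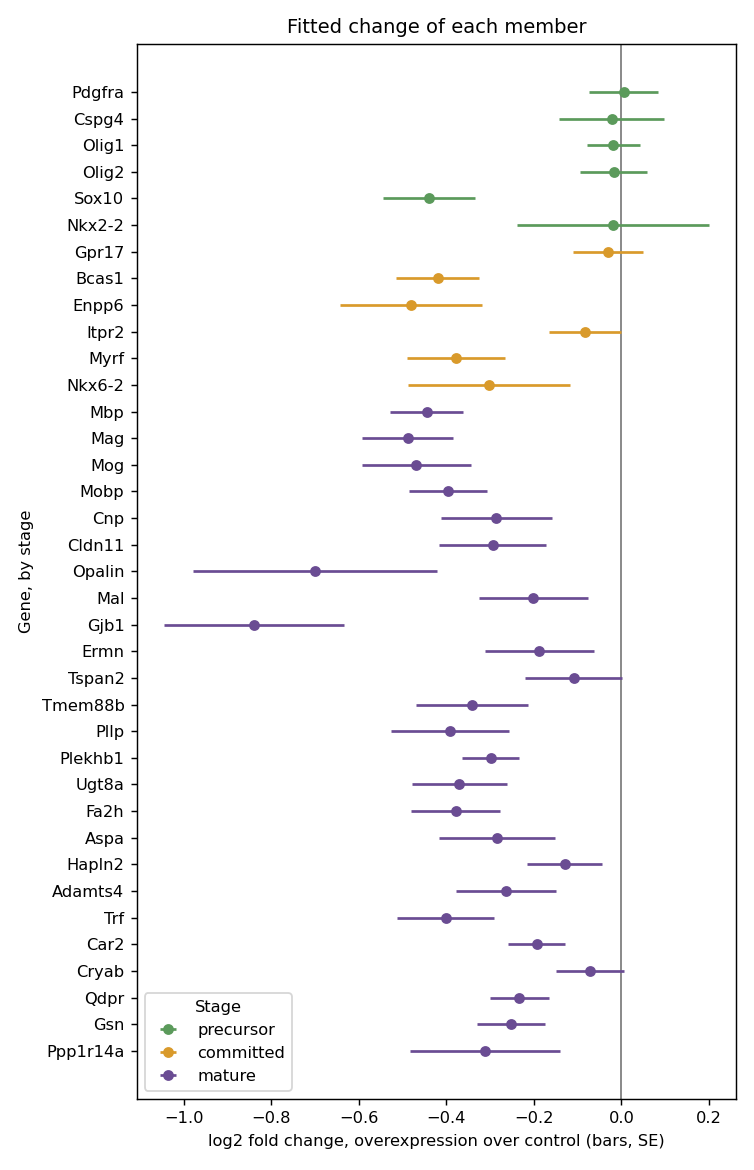
Fitted log2 fold change of each member, overexpression over control, with its SE from edgeR, coloured by stage. Precursor genes other than Sox10, and Gpr17 and Itpr2 among committed genes, lie near 0, and all 25 mature genes lie below it, from -0.84 for Gjb1 to -0.071 for Cryab.

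Of 3 enzymes that supply myelin lipids, 2 had groups that did not overlap and none passed the adjusted threshold. Among all tested genes 8.07% were lower without overlap. Fa2h, which makes the hydroxylated fatty acids of myelin galactolipids, stood at 20.9, 18.3 and 17.2 CPM in overexpression and 21.2, 27.4 and 24.6 CPM in control libraries. The groups were separated by a small margin at control replicate 1 (fold 0.769, interval 0.661 to 0.895, adjusted p = 0.296). Ugt8a, which adds galactose to ceramide, stood at 33.8, 28.2 and 33.6 against 36.6, 48.1 and 38.7 CPM without overlap (fold 0.774, interval 0.654 to 0.915, adjusted p = 0.388). Aspa, which frees acetate for lipid synthesis from N-acetylaspartate, stood at 11.2, 9.97 and 9.90 against 9.97, 14.8 and 13.0 CPM, and control replicate 1 lay among the overexpression libraries (unadjusted p = 0.0504). Without control replicate 2 the log2 fold change of Aspa went from -0.28 to -0.15 and that of Ugt8a from -0.37 to -0.24.

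Of the matrix genes, both had groups that overlapped. Adamts4, a matrix protease made by oligodendrocytes, stood at 23.5, 18.6 and 21.9 against 21.6, 29.2 and 25.9 CPM with overlap (fold 0.833, unadjusted p = 0.0418, adjusted p = 0.518). Its log2 fold change of -0.26 became -0.16 without control replicate 2 and -0.18 without overexpression replicate 2. Hapln2, a link protein at the nodes of Ranvier, stood at 19.6, 17.4 and 17.2 against 18.7, 19.4 and 21.1 CPM with overlap (fold 0.914, interval 0.806 to 1.04).

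Of the 6 soluble and cytoplasmic proteins, 4 had groups that did not overlap, where 8.07% of all tested genes were lower without overlap. Trf, the iron carrier transferrin made by oligodendrocytes, stood at 192, 158 and 165 CPM in overexpression and 194, 256 and 229 CPM in control libraries. Overexpression replicate 1 nearly reached control replicate 1 (fold 0.757, interval 0.635 to 0.903, adjusted p = 0.385). Qdpr, which regenerates tetrahydrobiopterin, stood at 85.9, 82.0 and 83.4 against 89.6, 108.9 and 96.7 CPM (fold 0.851, interval 0.769 to 0.942, adjusted p = 0.340). Car2, a carbonic anhydrase of oligodendrocytes, stood at 140, 139 and 128 against 145, 169 and 151 CPM (fold 0.875, adjusted p = 0.412).

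Gsn, an actin-severing protein, stood at 46.7, 38.6 and 37.5 against 47.5, 48.9 and 49.8 CPM. Its control values were close together, and overexpression replicate 1 was the one near them (fold 0.840, interval 0.747 to 0.943, adjusted p = 0.381; 0.0341 without that library). Cryab, a small heat shock protein shared with astrocytes, was at 50.6 ± 5.71 against 53.2 ± 2.43 CPM with overlap, the smallest difference of the mature genes. Ppp1r14a, a phosphatase inhibitor, was at 4.08 ± 0.496 against 5.05 ± 0.981 CPM with overlap. Without control replicate 2 the log2 fold change went from -0.23 to -0.15 for Qdpr, from -0.19 to -0.13 for Car2 and from -0.31 to -0.16 for Ppp1r14a. Fibroblasts also express Gsn and choroid plexus Trf. The markers of both had median fold changes above 1, with the choroid plexus sum by far the highest in overexpression replicate 1. The part of these tissues in the Gsn and Trf values was not tested.

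The libraries followed a shared order across the mature genes. Control replicate 2 was the highest of the 6 libraries for 19 of the 25 and control replicate 3 for the other 6. Control replicate 1 was below both other control libraries for all 25 and below the highest overexpression library for 12. The lowest library was overexpression replicate 2 for 14 genes, overexpression replicate 3 for 10 and control replicate 1 for 1.

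Averaged over the mature genes, the log2 deviation from the mean of the 6 libraries was -0.066, -0.24 and -0.18 in overexpression replicates 1 to 3 and -0.064, 0.35 and 0.20 in control replicates 1 to 3. Overexpression replicate 1 and control replicate 1 were therefore level on this measure. Over the committed genes the values were -0.090, -0.17 and -0.15 against -0.070, 0.25 and 0.23, the same order. Over the precursor genes they were 0.079, -0.035 and -0.17 against 0.015, 0.098 and 0.0083, with overexpression replicate 1 near the top. The mature average minus the precursor average was -0.15, -0.21 and -0.010 in overexpression and -0.079, 0.25 and 0.19 in control libraries. Control replicate 1 again fell among the overexpression libraries, and no test of the difference between stages was made.

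**Figure D4:**
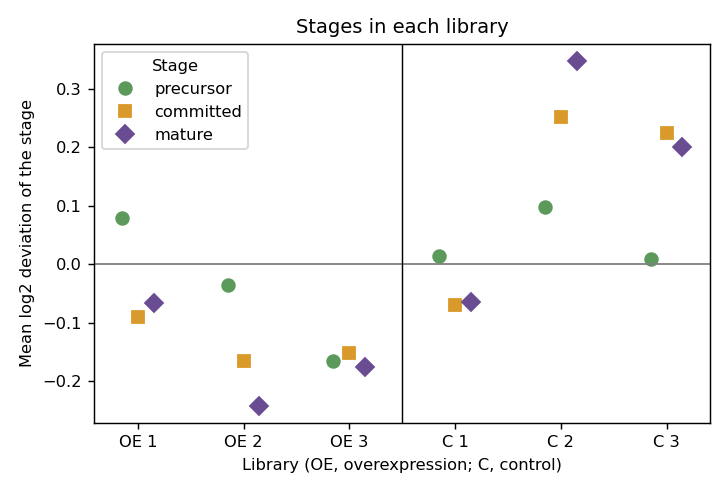
Mean log2 deviation of the precursor, committed and mature genes (green circles, orange squares, purple diamonds) in each library, relative to the mean of the 6 libraries. Mature and committed genes are high in control replicates 2 and 3 only, at 0.20 to 0.35, and precursor genes span -0.17 to 0.098 with no split by group.

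Further genes of the lineage, not among the 37, were counted by the same stages. Of 30 other genes of mature cells 25 had a fold below 1, against 49.6% of all tested genes. At an unadjusted p under 0.05, 11 were lower and 0 higher, against 4.6% and 4.64% of all tested genes. The list's median was -0.24 on the log2 scale. Over all 54 further genes 0 passed the adjusted threshold in edgeR's test (0.0465% of all tested genes) and 4 did in DESeq2's (0.553%). Tubb4a, a tubulin of oligodendrocytes and neurons, stood at 477, 437 and 417 CPM in overexpression and 530, 585 and 535 CPM in control libraries (unadjusted p = 1.47e-04, edgeR adjusted p = 0.117). Prr18 stood at 35.8, 32.4 and 31.3 against 37.7, 48.5 and 43.4 CPM (adjusted p = 0.215). Neither gene overlapped between groups.

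Of 12 other genes of committed cells 7 were below 1 and 5 above, where 49.6% of all tested genes were below 1. Their median was -0.070 on the log2 scale, against -0.34 for the 6 committed members. At an unadjusted p under 0.05, 2 were lower and 0 higher, against 4.6% and 4.64% of all tested genes. Those 2 were Sirt2, a deacetylase of myelin, at 99.2, 95.2 and 93.6 against 113, 115 and 113 CPM (adjusted p = 0.162), and Nfasc, an adhesion molecule of nodes and paranodes also made by neurons, at 370, 331 and 361 against 382, 379 and 409 CPM (adjusted p = 0.482). For Sirt2 control replicate 1 was level with the other control libraries, unlike its place among the myelin genes. Of 12 other precursor genes 5 were below 1 and 7 above, 0 had an unadjusted p under 0.05, and the median was 0.010. The smallest p among them was that of Sox8, a relative of Sox10, at 33.5, 33.3 and 33.6 against 35.8, 36.2 and 35.4 CPM without overlap (unadjusted p = 0.115), and Tnr, a matrix protein, was next at 324, 339 and 353 against 321, 321 and 325 CPM with overlap (unadjusted p = 0.184).

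Enpp2, a mature-cell gene also made by the choroid plexus, stood at 479.8 CPM in overexpression replicate 1 and 109 to 161 CPM in the other libraries. All 8 choroid plexus markers had a fold above 1, where 49.6% of all tested genes were below 1.

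The marker lists of fibroblasts and of choroid plexus, given above, had medians of 0.64 and 2.53 on the log2 scale, larger in size than that of the mature genes. The choroid plexus markers summed to 736, 48.7 and 71.0 CPM in overexpression replicates 1 to 3 and to 25.4, 51.1 and 28.0 CPM in control replicates 1 to 3. The excess of this sum thus lay mostly in overexpression replicate 1, where Ttr alone stood at 640 CPM. For 4 of the 8 (Kl, Clic6, Otx2 and Kcne2) every overexpression library lay above every control library, and the rest overlapped. Clic6, for one, stood at 19.7, 2.60 and 3.86 against 0.311, 0.984 and 0.295 CPM. Pmp2, a marker of Schwann cells, the myelinating cells of peripheral nerve, had 0 counts in every library. Of 8 neuron markers 6 had a fold below 1 (median -0.042 on the log2 scale), against 49.6% of all tested genes. The 8 summed to 5868 to 5918 CPM in overexpression and 5998 to 6544 CPM in control libraries. The medians of 8 astrocyte, 6 microglia and 5 endothelium markers were -0.0043, 0.0021 and 0.053, with sums of 5617 to 6150 against 5561 to 6202 CPM, 278 to 323 against 282 to 306 CPM and 205 to 209 against 182 to 214 CPM.

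Gfap, and 2 of 3 neurofilament genes, were lower in every overexpression library than in every control library, as were 8.07% of all tested genes. Of the 8 astrocyte markers 4 had a fold below 1 and 4 above, and only Gfap did not overlap. Gfap, a filament of astrocytes that is abundant in white matter, stood at 338, 328 and 401 CPM in overexpression and 465, 525 and 533 CPM in control libraries, without overlap (fold 0.700, unadjusted p = 4.48e-05, edgeR adjusted p = 0.0862). The neurofilament genes of large axons Nefm and Nefh were at 189, 182 and 201 against 218, 229 and 206 CPM and at 71.6, 63.4 and 66.5 against 73.9, 79.9 and 73.1 CPM, both without overlap, with adjusted p-values of 0.357 and 0.437. Nefl overlapped, at a log2 fold change of -0.0059. Their part in the myelin values was not tested.

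**Figure D5:**
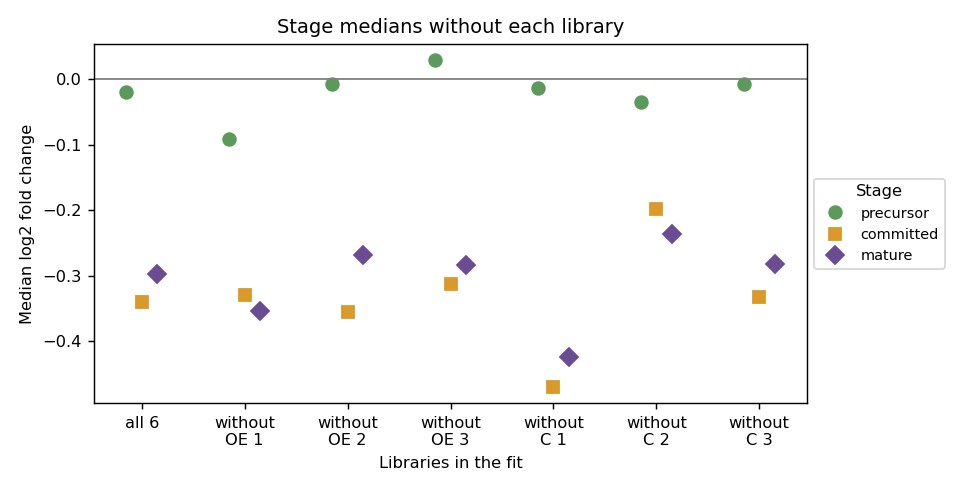
Median log2 fold change of the precursor, committed and mature genes (green circles, orange squares, purple diamonds) with all 6 libraries and with each library left out in turn (OE, overexpression; C, control). The mature median stays between -0.42 (without control replicate 1) and -0.24 (without control replicate 2), and the precursor median between -0.091 and 0.029.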

How the data were processed

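The authors deposited 1 table of raw counts by Ensembl gene identifier, with a column for each library and 0 further per-sample columns. Per the labels' protocols, RNA was selected with poly(T) and libraries kept strand by dUTP. The submitters' processing notes list featureCounts 2.0.3, STAR 2.7.10, Trimmomatic 0.36 and the builds GRCm39 and mm10 without roles. Not given in the sources used here were annotation release and strand setting; reads of overlapping genes may be shared. No 2 libraries agreed within sampling noise (chi-square per degree of freedom 4.28 to 12.9). The design text calls them separate mice.

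edgeR 4.0.16 (R 4.3.3; quasi-likelihood, robust; TMM factors; default filter) was fitted to group over all genes, with Benjamini-Hochberg adjustment over the 19354 tested; the SE came from the F statistic. The fit was also run on simulated counts, drawn independently for each gene with a common variability. Members that vary together were not simulated, and no result here rests on that run. CPM uses TMM-scaled library sizes. Exon lengths came from GENCODE M21. Alternatives were DESeq2 1.42.0, limma 3.58.1 voom, other factors, filters and thresholds, a replicate block and leaving out each library. Members, stages and lists were chosen with earlier results of these data known. Per-library values are given for the 4 members of smallest p in each role group, for Mbp, and for Gpr17, Opalin and Gjb1, added after their values were seen; of each list of other lineage genes, for the 2 of smallest p.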

Additional observations from a re-analysis of the deposited data

How the results depend on the processing

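In the main fit 36 of the 37 members were below 0, and of 481 member values under the 13 other fits 458 were. Those fits reuse the same libraries, so the values are not independent of the main fit or of each other. The medians of all genes stayed between -0.0026 and 0.011 on the log2 scale. The number of genes past the threshold was 9, and became 304 without a filter, 5 with 1 CPM in 3 libraries, 107 with DESeq2, 26 with the replicate block and 19 at an adjusted p of 0.1, with 2 to 63 when a library was left out. Of the members, 0 passed; 17 passed without a filter, 10 with DESeq2 and 0 to 11 with a library left out. Of the other lineage genes 0 passed, with 5 without a filter, 4 with DESeq2 and 0 to 2 with a library left out. The cause was not tested. The committed median of -0.34 ran from -0.47 to -0.20 with a library left out. Members lower at an unadjusted p under 0.05 numbered 15 to 28 over all fits, against 3.06 to 6.1% of all genes tested.

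Sign changes were limited to 8 members with small differences. With a library left out the log2 fold changes ran from -0.14 to 0.014 for Cryab, -0.12 to 0.12 for Cspg4, -0.092 to 0.061 for Gpr17, -0.14 to 0.015 for Itpr2, -0.18 to 0.17 for Nkx2-2, -0.063 to 0.027 for Olig1, -0.093 to 0.031 for Olig2 and -0.089 to 0.068 for Pdgfra. Under limma-voom with sample weights Nkx2-2 was at 0.070 and Pdgfra at -0.021.

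With the replicate number as a block, 0 members passed and Nkx2-2 was at 0.0019. Same-numbered libraries correlated at 0.014 to 0.018 after group means were removed, too little to pair them, although each library correlated best with its own number. The lowest depth was 30726110 counts. The SE of the log2 fold change was largest for Opalin, at 0.278, and Nkx2-2, at about 2 CPM, had 0.220.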
